A study of Mus musculus with 4 samples.

Results

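Genes for the receptors of glutamate, GABA and glycine were examined in the dentate gyrus (DG) of mice after electroconvulsive stimulation (ECS), a rodent model of electroconvulsive therapy. They were chosen by name, as all probe sets of the array annotated to a single gene symbol of the AMPA, kainate, NMDA, delta and metabotropic glutamate receptor families or of the GABA-A, GABA-B and glycine receptor families. This gave 39 probe sets of 31 genes, out of 20380 probe sets of 12393 genes with a single symbol. RefSeq's table of mouse genes (assembly GRCm38.p6) lists 50 protein-coding genes with such a name, and the others were not analysed here.

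The study asked how ECS alters granule cells (GCs) of the adult DG and whether mice that had earlier sessions still respond to a new one in the same way. RNA of the DG was measured on 4 Affymetrix Mouse Genome 430A 2.0 arrays, a single one per group, and the RNA on an array was a pool of 3 C57Bl/6 mice. The study's methods give the mice as males of 8 weeks, of the C57BL/6J or C57BL/6N substrain. The 4 groups were 11 ECS with dissection 1 h after the last, 10 ECS with dissection 48 h after the last, a single ECS with dissection 1 h later, and a single sham session with dissection 1 h later. In each ECS session, a bilateral current of 25 mA was passed through the ears for 1 s, in pulses of 0.5 ms at 100 per s, and repeated sessions followed each other 4 times per week over at most 3 weeks. Isoflurane anaesthesia and handling came with each session in all groups, and a sham session lacked only the current. The sham and single ECS groups had 1 session, whereas the others had 10 or 11 ECS sessions. In comparisons of those with sham or single ECS, repeated anaesthesia and handling cannot be told apart from repeated current. By the study's description, the mice of the 10 ECS group also had a sham session 1 h before dissection. Groups were taken from the sample titles, because in 3 of the 4 samples the free-text description disagrees with the title, the source and the treatment field, which match.

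Ionotropic receptors are channels assembled from several subunits around a pore. Those for glutamate pass cations and excite the neuron, while the GABA-A and glycine receptors pass chloride and mostly inhibit it. Metabotropic glutamate receptors and GABA-B receptors act through G proteins instead. GCs receive their main excitation from the perforant path through AMPA and NMDA receptors, and are held back by fast synaptic GABA-A receptors and by extrasynaptic GABA-A receptors that contain the delta subunit.

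Values are MAS5 signals, the brightness units that the array software gives each probe set on a linear scale. Where a gene had several probe sets, the one brightest on average stood for it. A floor of 12 units, the 25th percentile of all signals, replaced lower values in ratios, and a signal of at least 50 units is called bright below. There was 1 array in each group and hence no measure of the spread within groups, so no standard error or p-value is given, and a difference of 1.5-fold describes a size without testing it. The error available was the spread of log2 ratios between bright probe sets of the same gene, a pooled SD of 0.20, 0.20, 0.21 and 0.20 for the comparisons of single ECS with sham, 11 ECS with 10 ECS, 10 ECS with sham and 11 ECS with single ECS. This spread says nothing of variation between arrays or mice. An array cannot be told apart from its group, and in pooled tissue, fewer cells of a type and less RNA per cell cannot be told apart either.

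The arrays themselves differed in level. The median signal was 56.7, 62.4, 56.3 and 69.3 units on the 11 ECS, 10 ECS, single ECS and sham arrays, and 73.9%, 75.4%, 73.9% and 76.7% of probe sets lay above the floor. The median log2 ratio of all genes was accordingly -0.24 for single ECS over sham, -0.11 for 11 ECS over 10 ECS, -0.14 for 10 ECS over sham and 0.0006 for 11 ECS over single ECS. Each ratio below is therefore given as deposited and, where it matters, relative to this median of all genes.

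Of the 31 receptor genes, 11 were bright on all 4 arrays, 2 on some of them (*Grik1* and *Gabrb2*) and 18 on none. Above the floor, 17 were measured on all 4 arrays and 8 on some, and 6 (*Grik3*, *Gabra3*, *Gabrg3*, *Gabrr2*, *Glra3* and *Glra4*) lay at or under the floor on every array. By class, the genes bright on all arrays were 3 of 4 AMPA, 1 of 4 kainate, 1 of 5 NMDA, 4 of 11 GABA-A, 1 of 1 GABA-B and 1 of 4 glycine receptor genes. Neither the delta receptor gene *Grid1* nor *Grm8*, the one metabotropic glutamate receptor gene measured, was bright on any array. Signals of different probe sets depend on their probes as well as on the RNA, so no level of one gene is set against that of another.

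Promoter windows of 300 bases around the transcription start were available from RefSeq (assembly GRCm38.p6) for 23 of the 31 genes. Those of *Gabra2*, *Gabrg1* and *Gria2* are printed 5′ to 3′ because these 3 genes were among the 6 with the highest signal on the sham array and the lowest on the 11 ECS array (below), and because windows of the others, *Gria1*, *Gria3* and *Gabrd*, were not analysed here. The sequences lie at chr5:71095800-71096099, chr5:70842568-70842867 and chr3:80802786-80803085, all on the minus strand, and capitals mark matches to the GC box GGGCGG on either strand.
Gabra2: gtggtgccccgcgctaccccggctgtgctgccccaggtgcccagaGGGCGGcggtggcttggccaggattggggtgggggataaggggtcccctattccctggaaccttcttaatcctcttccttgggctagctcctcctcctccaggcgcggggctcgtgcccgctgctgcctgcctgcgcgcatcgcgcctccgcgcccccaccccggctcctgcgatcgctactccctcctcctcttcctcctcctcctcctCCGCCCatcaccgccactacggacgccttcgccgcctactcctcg
Gabrg1: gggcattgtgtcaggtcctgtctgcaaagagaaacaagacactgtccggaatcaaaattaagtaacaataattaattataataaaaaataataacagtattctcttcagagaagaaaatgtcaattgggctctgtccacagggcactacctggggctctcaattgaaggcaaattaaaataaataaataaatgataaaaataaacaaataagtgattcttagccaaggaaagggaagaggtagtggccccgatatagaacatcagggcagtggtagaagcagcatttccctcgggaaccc
Gria2: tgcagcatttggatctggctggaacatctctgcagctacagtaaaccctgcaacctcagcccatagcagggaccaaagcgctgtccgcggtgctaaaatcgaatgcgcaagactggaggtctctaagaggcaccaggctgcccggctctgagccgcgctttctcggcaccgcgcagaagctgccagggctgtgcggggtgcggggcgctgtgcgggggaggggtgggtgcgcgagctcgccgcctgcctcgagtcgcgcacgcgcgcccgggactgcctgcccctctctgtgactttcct
Their base composition differed, with 70.0% G and C in the *Gabra2* window, 38.3% in that of *Gabrg1* and 65.7% in that of *Gria2*. *Gabra2* and *Gabrg1* lie in a cluster of GABA-A subunit genes on chromosome 5 together with *Gabrb1*.

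The windows were searched on both strands for 4 motifs, of activity-regulated factors and of general ones. The 23 genes had 29 windows. The GC box stood in 12 of the 29 (41.4%), of 12 genes, against 35.7% of 32851 mouse promoters, and among the bright genes it stood in those of *Grik5*, *Grin2c*, *Gabra2*, *Gabrb2*, *Gabbr1* and *Glrb*. The AP-1 site TGANTCA stood in 2 of the 29, those of *Grin3b* and *Grm8* (7.81% of all promoters). Neither the cAMP response element TGACGTCA (1.79% of all promoters) nor the EGR site GCGTGGGCG (0.612%) matched a window of the 23 genes. An EGR match followed by G would contain a GC box. A match is a description of the letters, and a window without one says only that these letters are not in it.

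AMPA receptors carry most fast excitation, and as deposited the 3 bright genes for their subunits were lower in all 4 comparisons, although *Gria1* and *Gria2* turned in single ECS over sham, and *Gria2* in 11 ECS over 10 ECS, once the arrays were scaled to the same median. *Gria1*, the gene for the GluA1 subunit, had 2069, 2453, 2562.5 and 2772 units on the 11 ECS, 10 ECS, single ECS and sham arrays. *Gria2*, whose edited product keeps the channel from passing calcium, had 3668 units with 11 ECS, 3890.0 with 10 ECS, 3989.5 with single ECS and 4563 with sham. For *Gria3*, the third bright gene of the class, the signals were 538 with 11 ECS, 603 with 10 ECS, 611 with single ECS and 906 with sham. In all 3, as deposited, the sham array was highest and the 11 ECS array lowest, and for *Gria3* the 3 arrays of stimulated mice lay close together and well under sham.

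The *Gria3* ratio was -0.57 on the log2 scale (1.48-fold lower) for single ECS over sham and -0.59 (1.50-fold lower) for 10 ECS over sham, but only -0.16 for 11 ECS over 10 ECS and -0.18 for 11 ECS over single ECS. Relative to all genes, the values against sham were -0.33 and -0.45 for single ECS and 10 ECS. *Gria1* and *Gria2* differed less. Their ratios for single ECS over sham were -0.11 and -0.19, which became 0.13 and 0.05 relative to all genes, so their direction in that comparison was not the same on both scales. For 11 ECS over single ECS, where the median of all genes was near 0, *Gria1* was at -0.31, *Gria2* at -0.12 and *Gria3* at -0.18. *Gria4* was dim on all 4 arrays, between 18.8 and 23.0 units.

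**Figure D1:**
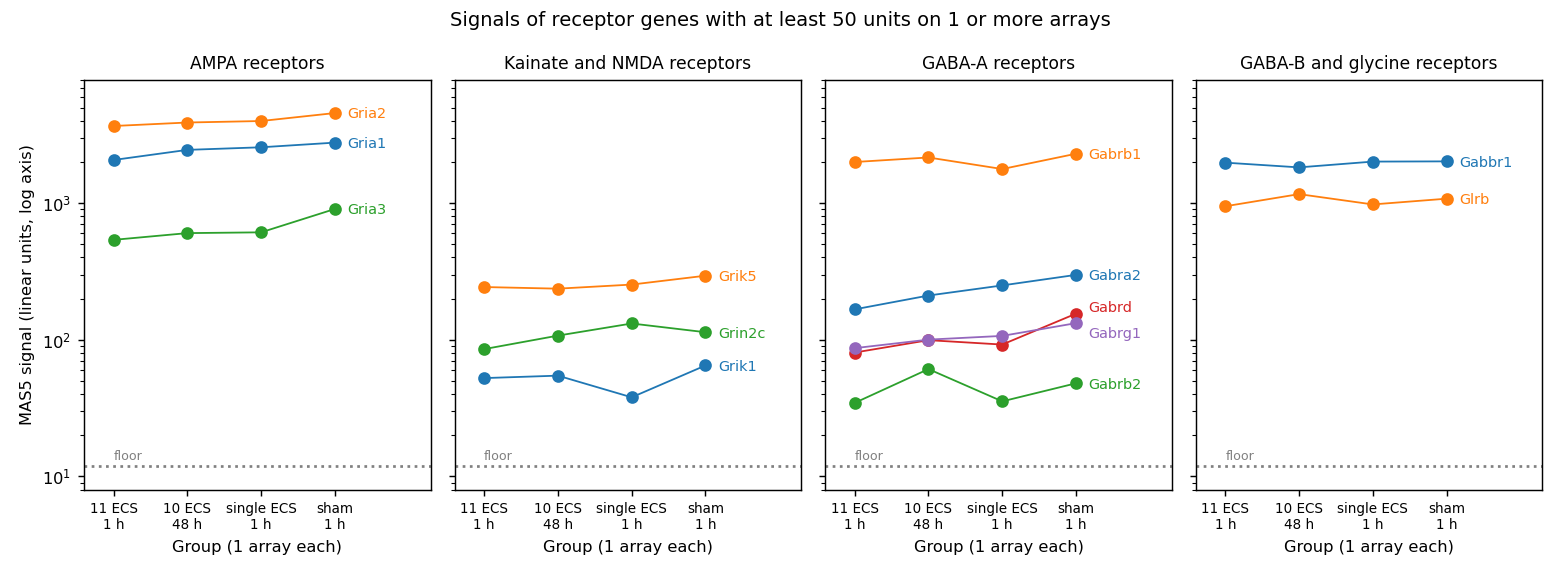
MAS5 signals (log axis, in linear signal units) of the 13 receptor genes with at least 50 units on 1 or more arrays, by receptor class. Each point is the 1 array of its group, lines only join the points of a gene, and the dotted line is the floor of 12 units. As deposited, the 3 AMPA receptor genes were highest on the sham array and lowest on the 11 ECS array, an order that Gria1 and Gria2 lost when the arrays were scaled to the same median, while Gabrb1 was lowest on the single ECS array.

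Kainate receptors are a smaller class of glutamate channels that act both before and behind the synapse. *Grik5* encodes a high-affinity subunit that needs a partner subunit to form a channel. It had 243, 236.5, 253 and 294 units on the 11 ECS, 10 ECS, single ECS and sham arrays, and its ratios of -0.22, 0.04, -0.31 and -0.06 for single ECS over sham, 11 ECS over 10 ECS, 10 ECS over sham and 11 ECS over single ECS were all within 0.18 of those of all genes. *Grik1*, a subunit that forms channels by itself, had 52.4, 54.6, 37.9 and 64.8 units on the 11 ECS, 10 ECS, single ECS and sham arrays. The single ECS array stood apart, 1.71-fold lower than sham (log2 -0.77, and -0.53 relative to all genes), and the 11 ECS array was 1.38-fold higher than it. *Grik2* was dim, between 19.4 and 29.9 units, and *Grik3* did not exceed 3.2 units.

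NMDA receptors admit calcium and couple synaptic activity to gene expression. Of their genes only *Grin2c*, a glutamate-binding subunit best known from the cerebellum, was bright, with 85.4, 107, 131.5 and 113.5 units on the 11 ECS, 10 ECS, single ECS and sham arrays. It was the one gene, of the 11 bright on all arrays, whose highest signal was that of the single ECS array. The ratio was 0.21 for single ECS over sham and -0.33 for 11 ECS over 10 ECS, and 0.45 and -0.22 relative to all genes. For 11 ECS over single ECS it was -0.62 (1.54-fold lower).

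*Grin2a* and *Grin2b*, the main glutamate-binding NMDA subunits of the forebrain, were read only by dim probe sets. *Grin2a* had 26.6, 19.9, 30.7 and 24.4 units on the 11 ECS, 10 ECS, single ECS and sham arrays. *Grin2b* had 23.5, 25.9, 11.9 and 35.4 units with its brighter probe set and 15.9, 30.7, 25.8 and 18.3 units with its other one on the same arrays. Both *Grin2b* probe sets ran in opposite directions in each comparison but that of 11 ECS with 10 ECS, so its brighter probe set alone, which the counts below use, settles no direction for this gene. The other NMDA receptor genes, *Grin2d* and *Grin3b*, lay between 3.4 and 24.5 units. *Grid1*, a delta receptor that binds cerebellins and is not opened by glutamate, lay between 1.7 and 23.1 units, and *Grm8*, a presynaptic receptor that lowers transmitter release, between 13.5 and 33.3 units.

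GABA-A receptors are chloride channels that mostly combine alpha and beta subunits with a gamma or a delta subunit. *Gabrd* encodes the delta subunit of the extrasynaptic receptors through which ambient GABA inhibits GCs. Its signals were 80.6 units with 11 ECS, 99.3 with 10 ECS, 92.2 with single ECS and 155 with sham, so that all 3 arrays of stimulated mice lay under sham. The ratio was -0.75 (1.68-fold lower) for single ECS over sham and -0.64 (1.56-fold lower) for 10 ECS over sham, and -0.51 relative to all genes in both. It was -0.30 for 11 ECS over 10 ECS and -0.19 for 11 ECS over single ECS. Both comparisons with sham share the sham array.

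*Gabra2*, an alpha subunit of synaptic receptors, had 167, 211, 249.8 and 298 units on the 11 ECS, 10 ECS, single ECS and sham arrays. Its signals were spaced over the arrays, and the value for 11 ECS over single ECS, -0.58 as deposited and relative to all genes, was the farthest from 0 of its 4 ratios. The value for 10 ECS over sham was -0.50, that for 11 ECS over 10 ECS -0.34 and that for single ECS over sham -0.26, the last of which was -0.02 relative to all genes and turned above 0 with median scaling. *Gabrg1*, a gamma subunit, had 86.8, 100.2, 107 and 132 units on the 11 ECS, 10 ECS, single ECS and sham arrays. Its ratios were -0.31 for single ECS over sham, -0.21 for 11 ECS over 10 ECS, -0.40 for 10 ECS over sham and -0.30 for 11 ECS over single ECS, at most 1.32-fold lower. Relative to all genes, these 4 ratios were -0.07, -0.10, -0.27 and -0.30.

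The beta subunits, which with the alpha subunits form the GABA binding site, did not run in this order. *Gabrb1* had 1999, 2158, 1776 and 2298.5 units on the 11 ECS, 10 ECS, single ECS and sham arrays. It was lowest with single ECS, 1.29-fold lower than sham (log2 -0.37, but -0.13 relative to all genes), and 1.13-fold higher with 11 ECS than with single ECS. *Gabrb2* had 34.5, 61.0, 35.4 and 48.0 units on the 11 ECS, 10 ECS, single ECS and sham arrays. Both arrays made 1 h after a stimulus were under both others, and the 11 ECS array was 1.77-fold lower than the 10 ECS array (log2 -0.82, and -0.72 relative to all genes), with 1 bright value among the 4. The 6 remaining GABA-A subunit genes, those of *Gabra3*, *Gabra6*, *Gabre*, *Gabrg3*, *Gabrr1* and *Gabrr2*, did not exceed 19.3 units on any array.

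*Gabbr1* encodes the GABA-binding subunit of the metabotropic GABA-B receptor. It had 1978, 1826, 2013 and 2021 units on the 11 ECS, 10 ECS, single ECS and sham arrays, and no ratio of its brightest probe set was more than 0.15 from 0. Relative to all genes it was higher by 0.23 for single ECS over sham and by 0.22 for 11 ECS over 10 ECS. Glycine receptors were represented by *Glrb*, the beta subunit that ties the receptor to its anchor gephyrin and needs an alpha subunit to form the usual channel. *Glrb* had 948, 1164, 978 and 1078 units on the 11 ECS, 10 ECS, single ECS and sham arrays. Both arrays made 1 h after a stimulus were lower than the 2 others, with ratios of -0.14 for single ECS over sham and -0.30 for 11 ECS over 10 ECS, and 0.10 and -0.19 relative to all genes, so that only the second kept its direction. Of the alpha subunit genes, *Glra3* and *Glra4* stayed at or under the floor, and *Glra1* passed it on the sham array alone, at 15.1 units.

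Single ECS was set against sham for the acute response of mice that had never been stimulated. Of 25 receptor genes above the floor on at least 1 of both arrays, 5 (*Gabrd*, *Grik1*, *Grin2b*, *Grin3b* and *Grm8*) were at least 1.5-fold lower with single ECS and 0 were higher, against 15.4% of all genes lower and 3.08% higher. Among the 12 bright on the brighter array, 2 were lower (*Gabrd* and *Grik1*) and 0 higher, against 13.3% and 2.44% of all genes. These shares, of few genes, are no result about receptor genes. *Grin2b* is counted by its brighter probe set (-1.56, with 0.50 for the other), and with the median over probe sets it was not among the genes lower. In direction, 11 of the 12 were below 0, against 83.8% of all genes, and 6 of the 12 relative to the median of all genes (5 with arrays scaled to the same median and 9 with quantile normalization). The median of the receptor genes was -0.03 relative to all genes.

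11 ECS was set against 10 ECS for the response to a stimulus that followed a course of them, on a separate pair of arrays. Of 22 receptor genes measured, 3 (*Gabrb2*, *Gabrr1* and *Grm8*) were at least 1.5-fold lower with 11 ECS and 2 (*Grid1* and *Grin3b*) higher, against 6.92% and 3.48% of all genes. Only *Gabrb2*, of the 13 bright genes, passed this size, against 4.16% of all genes lower and 2.37% higher. Of these 13, 11 were below 0 (69.5% of all genes) and 9 relative to all genes (8 with median scaling and 10 with quantile normalization). The receptor genes' median was -0.04 relative to all genes.

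10 ECS was set against sham for what differed 48 h after a course of ECS. Here 4 of 24 receptor genes (*Gabrd*, *Gria3*, *Grin2d* and *Grin3b*) were at least 1.5-fold lower with 10 ECS and 1 (*Gabrr1*) was higher, against 7.2% and 2.98% of all genes. Among the 13 bright genes, *Gabrd* and *Gria3* were lower and 0 were higher, against 4.92% and 1.11%. Relative to all genes, both also lay under the 5th percentile of bright genes, -0.447, *Gabrd* at -0.51 and *Gria3* only just, at -0.452. Of the 13, 11 were below 0 (76.0% of all genes) and 9 relative to all genes (8 with median scaling and 9 with quantile normalization). The median of the receptor genes was -0.10 relative to all genes.

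Both arrays made 1 h after a stimulus, 11 ECS and single ECS, were also compared. Of 23 receptor genes, 1 (*Grin2c*) was at least 1.5-fold lower with 11 ECS and 3 (*Grid1*, *Grin2b* and *Grin3b*) were higher, against 4.31% and 4.39% of all genes. Among the 12 bright genes, *Grin2c* was lower and 0 were higher, against 2.93% and 2.16%. In this comparison, in which the whole arrays hardly differed, 10 of the 12 bright genes were lower with 11 ECS, against 50.8% of all genes, and the exceptions were *Grik1* (0.47) and *Gabrb1* (0.17). Of those lower, *Gabbr1*, *Glrb*, *Grik5*, *Gria2*, *Gria3* and *Gabrd*, between -0.03 and -0.19, lay within the pooled SD of 0.20 between bright probe sets. This count of few genes was not tested. *Grin2b* is again counted by its brighter probe set (0.97, with -0.70 for the other), and with the median over probe sets 2 genes were higher, *Grid1* and *Grin3b*. With quantile normalization 8 of the 12 bright genes were lower, as *Gabbr1* and *Glrb* turned. The median of all 23 was -0.06 relative to all genes.

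**Figure D2:**
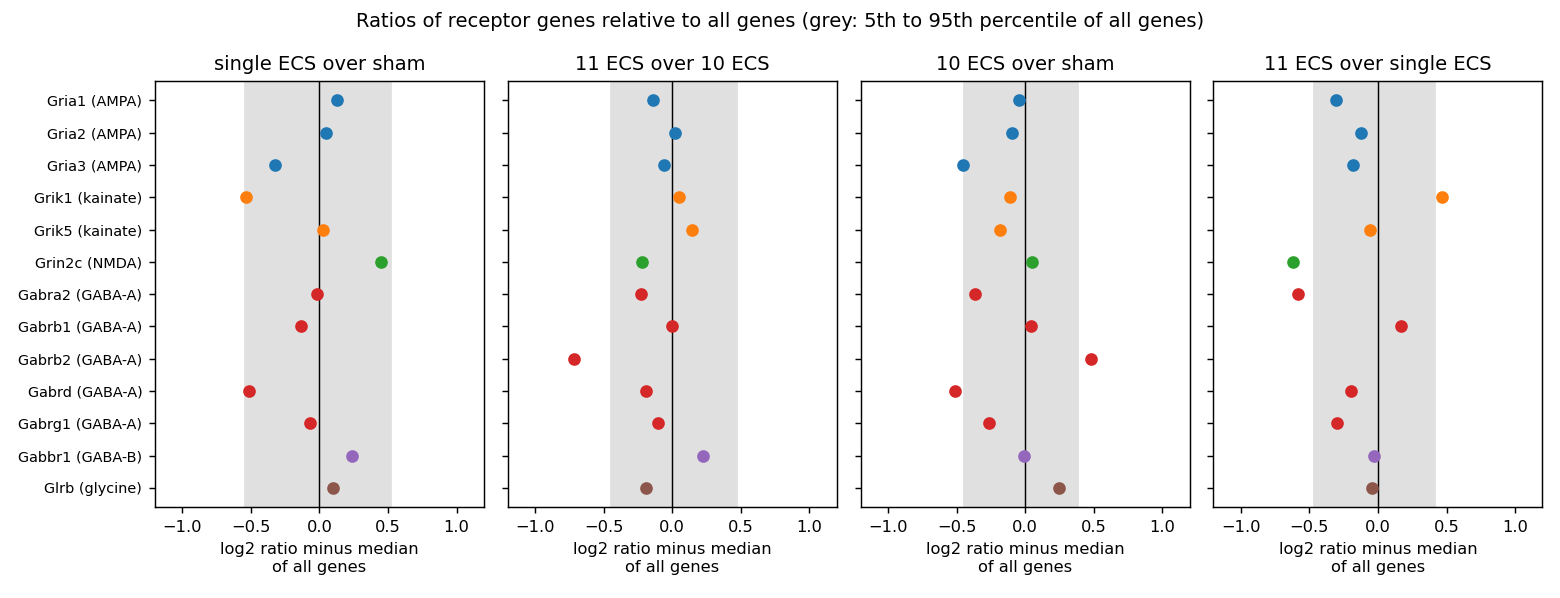
Log2 ratios of the bright receptor genes in the 4 comparisons, each minus the median log2 ratio of all genes, 1 point per gene and coloured by class, for genes with at least 50 units on the brighter array. The grey band runs from the 5th to the 95th percentile of all genes as bright. Outside it lie Gabrb2 for 11 ECS over 10 ECS, Gria3 (only just), Gabrd and Gabrb2 for 10 ECS over sham, and Grik1, Grin2c and Gabra2 for 11 ECS over single ECS.

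Whether some of these genes passed 1.5-fold depended on the scaling of the arrays. After each array was scaled to the same median, *Gabrd*, at -0.45, and *Grik1*, at -0.47, were no longer 1.5-fold lower with single ECS than with sham, and *Gabrd* and *Gria3* were no longer so with 10 ECS. Their ratios stayed below 0. *Gabra2*, with 11 ECS 1.50-fold lower than with single ECS after rounding but just short of the limit, passed it with this scaling. Over all genes, the same scaling gave 4.87% lower and 6.60% higher for single ECS over sham, in place of 15.4% and 3.08%. For 11 ECS over 10 ECS it gave 4.21% lower and 5.40% higher, and for 10 ECS over sham 3.92% lower and 4.47% higher.

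Over the 4 arrays, 6 of the 11 genes bright on all of them (*Gria1*, *Gria2*, *Gria3*, *Gabra2*, *Gabrd* and *Gabrg1*) were lower in each of the 4 comparisons, with sham highest and 11 ECS lowest, as were 28.5% of 6933 genes as bright. The sham array was highest for 9 of the 11 (64.2% of all genes) and the 11 ECS array lowest for 8 of the 11 (35.9%). Scaled to the same median, the order held for 3 of the 6 (*Gria3*, *Gabrd* and *Gabrg1*) and for 8.59% of all genes. With quantile normalization it held for the same 6 genes and for 11.7% of all genes. The 4 comparisons share arrays, so the 4 directions of a gene are not 4 separate observations.

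The difference of responses, 11 ECS over 10 ECS minus single ECS over sham, uses all 4 arrays and was not tested. Its median over 22 receptor genes was 0.11, against 0.13 for all genes. Among the 11 genes bright on all arrays it lay between -0.54 for *Grin2c* and 0.45 for *Gabrd*, with 0.40 for *Gria3*. It was above 0 for 7 of these 11 and for 5042 of 6933 genes as bright. For *Gabrd* and *Gria3* the ratio of 11 ECS over 10 ECS was thus nearer to 0 than that of single ECS over sham. Their signal on the 10 ECS array was below that on the sham array. Both values use the same sham and 10 ECS arrays, so they are not separate observations.

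**Figure D3:**
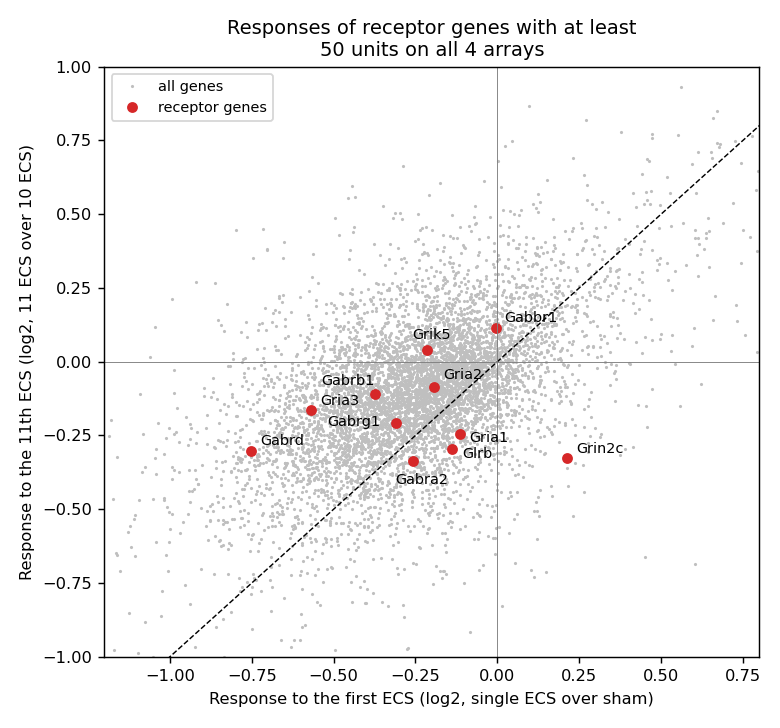
Response to the 11th ECS (vertical, log2 of 11 ECS over 10 ECS) against the response to the first ECS (horizontal, log2 of single ECS over sham) for 6933 genes with at least 50 units on all 4 arrays (grey; 139 lie outside the axes) and the 11 receptor genes among them (red). The dashed line marks equal responses. Grin2c lies below it, higher with the first ECS and lower with the 11th, and Gabrd and Gria3 lie above it.

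Several genes were read by more than 1 probe set, and those of 4 bright genes are described here, 3 of them (*Gria1*, *Gria2* and *Gabrg1*) chosen after their values were seen. The other *Gria1* probe set had 1914.5, 2133, 2311 and 2669.7 units on the 11 ECS, 10 ECS, single ECS and sham arrays, the order of the first. For *Gria2*, the dimmer probe set had 510.4, 609.5, 763 and 953 units on the 11 ECS, 10 ECS, single ECS and sham arrays. That was 53.6%, 63.9% and 80.1% of sham with 11 ECS, 10 ECS and single ECS, while the brighter one was at 80.4%, 85.3% and 87.4%. Both *Gria2* probe sets were thus lowest with 11 ECS, and the dimmer one was further under sham.

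The second *Gabrg1* probe set had 41.9, 46.2, 49.1 and 57.9 units on the 11 ECS, 10 ECS, single ECS and sham arrays, the same order again. *Gabbr1* had 4 probe sets, which did not share an order. The second of them had 1045, 1053, 1086 and 1322 units on the 11 ECS, 10 ECS, single ECS and sham arrays, or 79.1%, 79.7% and 82.1% of sham with 11 ECS, 10 ECS and single ECS. The third had 261, 269, 302 and 280.6 units on the 11 ECS, 10 ECS, single ECS and sham arrays, highest with single ECS, and the fourth did not exceed 9.7 units. A small difference of *Gabbr1* in either direction thus rested on the probe set.

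**Figure D4:**
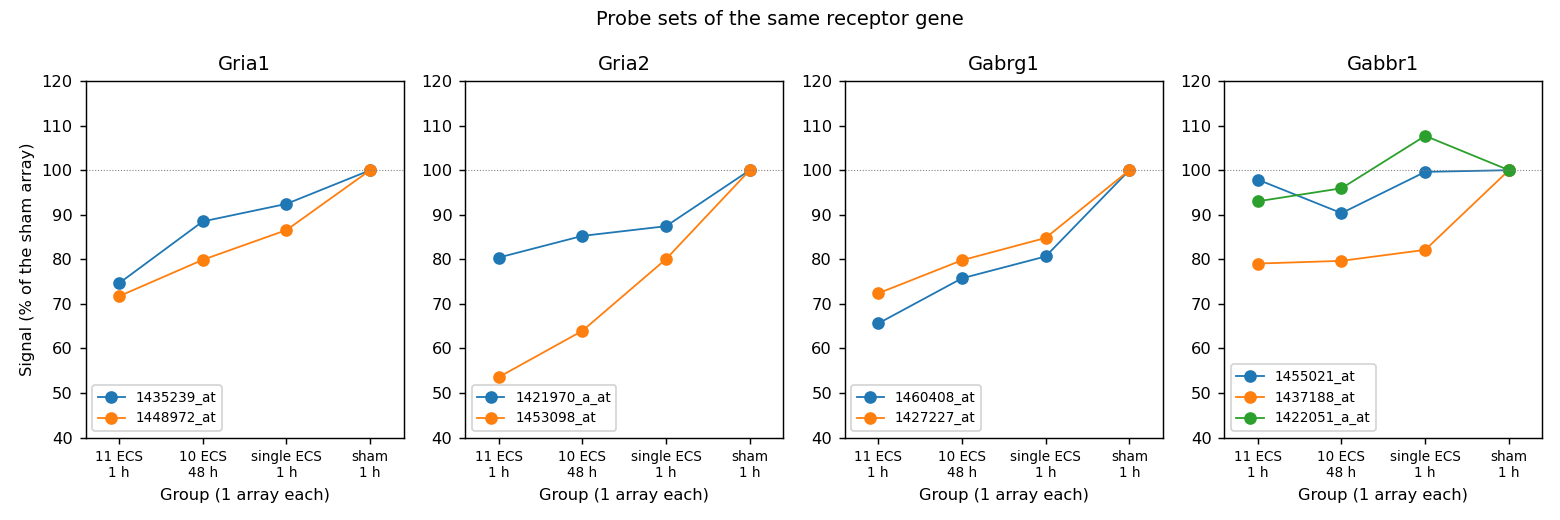
Signals of the probe sets of Gria1, Gria2, Gabrg1 and Gabbr1 that were above the floor on all arrays, as a percentage of the sham array, 1 point per array (the vertical axis does not start at 0). Probe sets of Gria1, Gria2 and Gabrg1 ran in the same order, while those of Gabbr1 did not.

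Proteins that anchor, traffic or modulate these receptors were described from a list of 39 genes, of which 26 were measured. Among the bright ones, 1 of 23 (*Homer1*) was at least 1.5-fold higher and 1 (*Cacng5*) lower with single ECS than with sham, and 1 of 22 was higher and 1 lower with 11 ECS than with 10 ECS, the same 2 genes. Of all bright genes, 2.44% were higher and 13.3% lower in the first of these comparisons, and 2.37% and 4.16% in the second. With 10 ECS, 3 of 21 (*Cacng5*, *Cacng8* and *Homer2*) were lower than with sham, and with 11 ECS, 3 of 23 (*Homer1*, *Cacng5* and *Cacng8*) were lower than with single ECS, against 4.92% and 2.93% of all bright genes. *Homer1*, a scaffold of metabotropic glutamate receptors with a stimulus-induced short form, had 116, 5.5, 264 and 3.3 units on the 11 ECS, 10 ECS, single ECS and sham arrays. That was at least 22.0-fold higher with single ECS than with sham and at least 9.69-fold higher with 11 ECS than with 10 ECS, against the floor.

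*Cacng5* and *Cacng8* encode transmembrane AMPA receptor regulatory proteins. *Cacng5* had 45.1, 68.0, 79.3 and 131 units on the 11 ECS, 10 ECS, single ECS and sham arrays, and *Cacng8* had 60.7, 66.3, 94.8 and 103 units on the same arrays. Both ran in the order of the AMPA receptor genes. The looser pattern, sham highest and 11 ECS lowest, was that of 28.5% of all genes bright on all 4 arrays, a set that *Cacng5* is not in. The share of all genes with the full order was not counted. *Cacng5* and *Cacng8* were named because they passed 1.5-fold. Of the other *Cacng* genes listed, *Cacng7* had the order of the AMPA receptor genes at dim signals, while *Cacng2*, *Cacng3* and *Cacng4* did not. *Cacng2*, for instance, had 336, 365, 276.5 and 362 units on the 11 ECS, 10 ECS, single ECS and sham arrays. *Homer2*, a paralog of *Homer1*, had 184, 197, 237 and 315 units on the 11 ECS, 10 ECS, single ECS and sham arrays. Of 24 listed genes for the synthesis and transport of the transmitters, 18 were measured and 15 were bright, and 1 of them (*Slc6a9*, a glycine transporter) passed the size, lower with single ECS (68.5 units) than with sham (110.0 units), where 13.3% of all bright genes were lower.

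The summed signal of 7 GC markers, of 8 listed, was 3939, 4437, 6086 and 7264 units on the 11 ECS, 10 ECS, single ECS and sham arrays, none of them at the floor. This is the order of *Gria1*, *Gria2*, *Gria3*, *Gabra2* and *Gabrg1*, but only 3 of the 7 markers (*Dsp*, *Calb1* and *Tdo2*) had it themselves. Without *Calb1* and *Dsp*, the sum of the other 5 was 2053, 1937, 2214 and 2328 units on the same arrays. For 10 interneuron markers the sum was 8505, 8528, 8286 and 8814 units on the 11 ECS, 10 ECS, single ECS and sham arrays, and without *Npy*, which was higher after repeated ECS (1350.0, 1320.2, 608 and 585.5 units), it was 7155, 7208, 7677 and 8229 units, in the same order as the GC sum. In this list, too, 3 markers (*Gad2*, *Pvalb* and *Cck*) had that order themselves. Leaving these markers out was chosen after the values were seen. All these sums are of signals as deposited, without scaling for the level of the arrays. The trimmed means of the arrays were 207, 217, 214 and 239 units for 11 ECS, 10 ECS, single ECS and sham, also with sham highest and 11 ECS lowest. The sum of 5 measured pyramidal cell markers was 1848, 2089, 1868 and 2074 units, and that of 3 mossy cell markers 472, 468, 412 and 407 units on the same arrays. Sums of astrocyte, oligodendrocyte, microglia and endothelial markers lay between 6493 and 7276, 6464 and 7582.5, 1988 and 2130.0, and 704 and 783 units. The sum of 5 choroid plexus markers, *Kcne2* and *Aqp1* of them at or under the floor, was 127, 161, 273 and 169 units on the 11 ECS, 10 ECS, single ECS and sham arrays. The part of these marker levels in the receptor values was not tested.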

How the data were processed

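The authors pooled the RNA of the 3 mice of a group, amplified 100 ng with a 3' in vitro transcription kit and computed 1 signal per probe set and array with the array software (Microarray Suite 5.0 in the study's methods, MAS5 without a version in the submitters' processing notes). The deposited values are these intensity values on a linear scale. For the scaling between arrays, no method is given in the sources used here, and trimmed means (2% at each end) were 207, 217, 214 and 239 units for 11 ECS, 10 ECS, single ECS and sham.

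The table held 22626 probe sets besides 64 controls, and the platform annotation gave 1 symbol for 20380 of them, several for 691 and none for 1555. Log2 ratios of 2 arrays were taken after values under the floor of 12 were set to it, and genes under it on both were left out of a comparison. For genes past the floor on 1 array only, a ratio depends on the floor. Python 3.11.15, numpy 2.4.6 and pandas 2.3.3 were used, and the scripts were tested on simulated signals. For arrays, their number limits the precision, and with 1 array per group no test was made. The alternatives were a floor of 50, median scaling, quantile normalization and the median over the probe sets of a gene, and the order of the arrays under both scalings was added after the data were seen. The members, gene lists and rule for named genes (bright genes past 1.5-fold, those farthest from 0 in each class, and a fixed list of main subunits) were chosen with earlier results of these data known. Promoter windows came from RefSeq, and no protein sequence was used here.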

Additional observations from a re-analysis of the deposited data

Results flagged for a closer look

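*Grin2c* was picked out because its signal differed in opposite directions in both responses, higher with single ECS than with sham (0.21 on the log2 scale) and lower with 11 ECS than with 10 ECS (-0.33), and the same held relative to all genes (0.45 and -0.22). The difference of the responses was -0.54. It rests on 1 probe set and 1 array per group, and the difference was not tested.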

How the results depend on the processing

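With a floor of 50 units in place of 12, the receptor genes at least 1.5-fold lower were 1 in place of 5 for single ECS over sham, 0 in place of 3 for 11 ECS over 10 ECS and 2 in place of 4 for 10 ECS over sham, and those higher were 0 in place of 2 for 11 ECS over 10 ECS, 0 in place of 1 for 10 ECS over sham and 0 in place of 3 for 11 ECS over single ECS. It left 12 or 13 receptor genes per comparison. Of all genes, 10.8%, 2.96% and 3.95% were then lower for single ECS over sham, 11 ECS over 10 ECS and 10 ECS over sham. The shares higher were 1.93%, 0.694% and 1.32% for 11 ECS over 10 ECS, 10 ECS over sham and 11 ECS over single ECS. This floor left out dim genes and raised dim values, as for *Grik1* in single ECS over sham (log2 -0.37) and *Gabrb2* in 11 ECS over 10 ECS (-0.29). With arrays scaled to the same median, 2 of 25 were lower and 1 higher (in place of 5 and 0) for single ECS over sham, against 4.87% and 6.60% of all genes. For 10 ECS over sham, 2 of 24 were lower and 2 higher (in place of 4 and 1), against 3.92% and 4.47%. For 11 ECS over single ECS, 3 of 23 were lower (in place of 1), against 4.78%. With quantile normalization, 3 were lower and 1 higher for single ECS over sham, 2 lower for 10 ECS over sham and 2 lower for 11 ECS over single ECS. The cause of the shifts under both scalings was not tested. Taking the median over the probe sets of a gene moved none of the counts by over 1.5 times. Ratios of single bright genes under these 4 alternatives were set against the spread between probe sets of a gene above the floor. This was a pooled SD of 0.29, 0.27, 0.29 and 0.28 for the 4 comparisons in the order used above, wider than that of bright probe sets. By this measure 185 moved by less, 15 moved by more, and 0 of those past 1.5-fold turned round. Many of the 185 could not move. A floor of 50 leaves genes bright on all 4 arrays unchanged, and the median over probe sets leaves genes with 1 probe set unchanged.

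No paired analysis was possible because each group had 1 array, and for the same reason no replicate was left out. Dim probe sets set a further limit: 18 of the 31 genes never reached 50 units.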
